A study of Mus musculus with 48 samples.

Results

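In P19 cells, 1196 accessible regions were higher after 8 h of Activin than in any other signalling state, out of 162505 regions with an ATAC-seq peak in all 4 states and 287329 merged regions in all. They were chosen by their measured peak heights. For each state, the highest fold enrichment of a peak in the region (the mean pileup of reads over the local background of the same sample, a ratio) was divided by the median of that value over the shared regions, and L is the log2 of this scaled value over the one with SB-431542. The members had L of at least 0.45 at 8 h, written L(8H), and L below 0.2 at 1 h and in untreated cells, written L(1H) and L(UNT). They made up 0.736% of the shared regions. An L(8H) of at least 0.45 by itself was reached by 6990 regions, 4.30% of the shared regions, and of these 5425 were also at 0.2 or above in untreated cells and 2024 at 1 h. The members were 17.1% of them.

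The study profiled P19, a mouse embryonic teratoma cell line grown in DMEM with serum, so that all 4 states share 1 line and 1 full medium. In the SB-431542 condition, cells were kept overnight in 10 µM SB-431542, which blocks the kinase of the Activin and NODAL type I receptors, washed, and given the inhibitor again for 1 h. For 1 h Activin and 8 h Activin, the overnight inhibitor was washed out and 20 ng/ml Activin was added for the stated time, and the untreated cells received neither agent and signal chronically through the NODAL and GDF3 that they make. Each state had 2 biological replicates of 100000 cells per reaction, with 12 libraries per state in the sample labels, but the deposited data hold 1 merged list of peaks per state, so no value below has a replicate error and no difference between states has a test.

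Activin and NODAL act through receptor kinases that phosphorylate SMAD2 and SMAD3, which enter the nucleus with SMAD4 and bind DNA mostly together with other transcription factors. TCF and LEF proteins are the DNA-binding partners of β-catenin in WNT signalling, a pathway that acts with NODAL in the primitive streak, and ZIC proteins are zinc finger factors that bind enhancers of pluripotent and early neural cells. In ATAC-seq, a transposase inserts adapters into DNA that is not wrapped in nucleosomes, so that active enhancers and promoters give peaks.

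The sequences of the regions with the highest L(8H) are shown first. The lines below give 300 bp centred on the 8 h peak for 3 of the members with the highest L(8H). They were read from the RefSeq mouse assembly GRCm38.p6, which is mm10, and each is named by the nearest gene. Capitals mark the TCF/LEF letters ATCAAAG or their variant TTCAAAG and the ZIC letters CCTGCTG, on either strand.
*Prr30* (chr14:101269142-101269441, plus strand): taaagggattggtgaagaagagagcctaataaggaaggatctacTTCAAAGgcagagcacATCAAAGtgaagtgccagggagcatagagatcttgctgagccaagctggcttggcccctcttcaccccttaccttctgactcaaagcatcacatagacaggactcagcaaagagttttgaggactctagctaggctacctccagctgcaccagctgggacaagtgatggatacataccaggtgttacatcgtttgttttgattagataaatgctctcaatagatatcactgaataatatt
*Adcyap1* (chr17:93898711-93899010, plus strand): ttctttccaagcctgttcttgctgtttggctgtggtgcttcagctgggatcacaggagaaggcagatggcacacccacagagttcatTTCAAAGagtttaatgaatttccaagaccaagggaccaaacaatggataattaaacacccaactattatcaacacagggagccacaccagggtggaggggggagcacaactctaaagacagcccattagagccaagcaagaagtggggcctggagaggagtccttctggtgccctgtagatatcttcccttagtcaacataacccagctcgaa
*Smco4* (chr9:15557728-15558027, plus strand): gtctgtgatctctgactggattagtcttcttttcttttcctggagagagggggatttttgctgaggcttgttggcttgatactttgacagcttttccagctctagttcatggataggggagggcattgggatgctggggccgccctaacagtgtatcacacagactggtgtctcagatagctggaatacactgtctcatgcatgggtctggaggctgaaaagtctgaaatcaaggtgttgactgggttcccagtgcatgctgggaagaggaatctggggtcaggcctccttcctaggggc

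The region nearest *Prr30* held both TCF/LEF forms within a short stretch of its first part. The region nearest *Adcyap1* held the variant form once, and the region nearest *Smco4* held none of these letters. Another 10 stretches are given for what the members with a TCF/LEF match have in common, since its letters had the highest ratio to all shared regions among 7-letter words present in at least 3% of the members. Each holds the match with 30 bases on both sides, read so that the match is ATCAAAG, from members with a high L(8H).
*Ppp3ca* (chr3:136909677-136909743, plus strand): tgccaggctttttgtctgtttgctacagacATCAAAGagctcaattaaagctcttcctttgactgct
*6030498E09Rik* (chrX:38735463-38735529, plus strand): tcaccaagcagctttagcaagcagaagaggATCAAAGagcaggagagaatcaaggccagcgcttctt
*1810013L24Rik* (chr16:9364316-9364382, plus strand): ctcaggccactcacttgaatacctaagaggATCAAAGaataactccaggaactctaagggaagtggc
*Mir6417* (chr5:52042577-52042643, plus strand): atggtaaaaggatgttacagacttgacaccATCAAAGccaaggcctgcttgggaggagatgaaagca
*Cd6* (chr19:10789878-10789944, plus strand): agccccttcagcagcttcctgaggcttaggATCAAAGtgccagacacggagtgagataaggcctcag
*Ube2e2* (chr14:18981056-18981122, minus strand): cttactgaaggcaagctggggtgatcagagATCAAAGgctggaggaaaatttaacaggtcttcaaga
*4930434J06Rik* (chr14:72143162-72143228, minus strand): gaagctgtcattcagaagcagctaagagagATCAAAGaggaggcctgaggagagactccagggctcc
*Ctag2* (chrX:64939276-64939342, plus strand): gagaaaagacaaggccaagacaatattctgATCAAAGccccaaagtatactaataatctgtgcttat
*Mmrn1* (chr6:61021138-61021204, plus strand): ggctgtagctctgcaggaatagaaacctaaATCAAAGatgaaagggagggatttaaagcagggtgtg
*Dido1* (chr2:180681450-180681516, plus strand): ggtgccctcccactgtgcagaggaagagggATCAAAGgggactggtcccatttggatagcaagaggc

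Over all members, 189 matches could be read with their flanks. The base before the match was C or G in 33.9% and 35.4% of them, against 27.0% and 23.1% of the 8166 matches in all shared regions. An A stood 2 bases before the match in 47.6% (95% Wilson interval 40.6 to 54.7) of the members' matches and in 33.0% (32.0 to 34.0) of all.

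The choice of the members fixes the order of the states in them, and their peak values are given as a description. The median fold enrichment of the 1196 members was 2.63 in the SB-431542 condition, 2.45 after 1 h, 3.84 after 8 h and 2.67 in untreated cells. Over all shared regions the medians were 2.67, 2.49, 2.62 and 2.62. In every state other than 8 h, the members were thus of ordinary height, and at 8 h they ranged from 2.12 to 12.2. The median −log10 q, the score the peak caller gives for a peak against its own background, was 13.3, 9.94, 29.2 and 12.2 in the same order. With SB-431542 173 members had a −log10 q under 5, and at 8 h 813 had one of at least 20. A peak in the SB-431542 condition was required of every member by the choice of regions with a peak in all 4 states. The members' height there was about that of the shared regions at large.

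**Figure D1:**
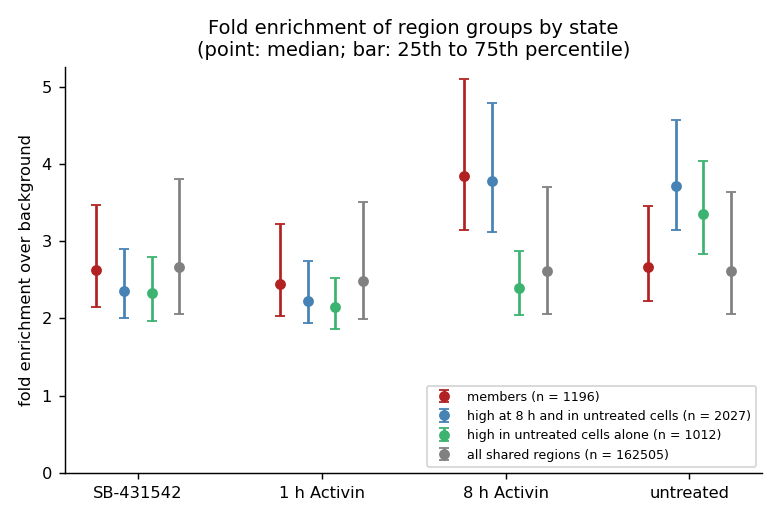
Fold enrichment over background (vertical axis, a ratio) in the 4 states for the 1196 members and, for comparison, the 2027 regions high at 8 h and in untreated cells, the 1012 regions high in untreated cells alone and all 162505 shared regions. Points are medians and bars run from the 25th to the 75th percentile, and the members stand farthest above all shared regions at 8 h, at a median of 3.84 against 2.62, with 2.67 against 2.62 in untreated cells.

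Most of the rises were small. The median L(8H) was 0.54, 650 members lay between 0.45 and 0.55, and 27 reached 1. The median L was 0.03 at 1 h and 0.09 in untreated cells, and 542 members had an L(UNT) between 0.1 and 0.2, just under the limit. In 157 members L was below 0 both at 1 h and in untreated cells. The distance from L(8H) to the higher of the other pair was 0.45 in the median and ran from 0.26 to 1.41.

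Regions just inside and just outside the limits had almost the same values. The region nearest *Rims2* was a member with L(8H) of 0.4501, and the one nearest *Efnb2*, an ephrin ligand gene, was not, with 0.4498. At the 1 h limit, the region nearest *Fpr3* was inside with L(1H) of 0.1996 and the one nearest *Ext1* outside with 0.2003. At the untreated limit, a region nearest *Abi2* was inside with L(UNT) of 0.1999, and a region nearest *Bambi*, which encodes a pseudoreceptor of the TGF-β family, was outside with 0.2001 and an L(8H) of 0.8041.

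A ratio can rise through its numerator or its denominator, and both were estimated from the fold enrichment and the −log10 p of each peak. After scaling to the median of all shared regions, the estimated mean pileup of the members was higher at 8 h than with SB-431542 by 0.64 on the log2 scale in the median, against 0.04 at 1 h and 0.12 in untreated cells. The estimated local background was higher by 0.07. The pileup was highest at 8 h in 1188 of the 1196 members. Its estimate uses the fold enrichment by which the members were chosen, so this count was in part set by the choice. The scaled background change at 8 h, with a median over all shared regions of 0 by construction, was below 0 in 287 members. It was below −0.45 on the log2 scale in 9. Before scaling, the members' median estimated background was 30.2 with SB-431542 and 24.6 at 8 h. The same limits applied to the estimated pileup in place of the fold enrichment kept 639 of the members, 53.4%, among 1735 regions. The lowest estimated background of a list, which tracks its depth, was 79.0% of the SB-431542 value at 8 h, 92.5% at 1 h and 84.8% in untreated cells, and the part of depth in the rises was not tested. More open copies per cell and more cells with the region open cannot be told apart in these bulk samples.

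The highest L(8H) belonged to an intergenic region 69.2 kb upstream of *Prr30* (chr14:101268919-101269663). Fold enrichments of 2.73 (SB-431542), 2.88 (1 h), 8.03 (8 h) and 2.27 (untreated) were measured there, an L(8H) of 1.58. It was the tallest of its 4 values at 8 h alone, and untreated cells had the lowest.

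An intergenic region 701 kb from *Adcyap1*, the gene of the neuropeptide PACAP, had 1.91, 1.69, 5.43 and 2.04 in the same order. The strongest peak there spanned 3473 bp in the SB-431542 condition and 443 bp at 8 h, so that the averages cover different extents, and its estimated pileup rose by 1.16, less than its L(8H) of 1.54. The region 52.7 kb from *Smco4* had 2.16, 2.13, 5.17 and 2.41. The region 589 kb upstream of *Vwc2*, which encodes a secreted BMP antagonist, had 2.53, 2.40, 5.89 and 2.80, and its estimated pileup rose by 1.90 on the log2 scale. All 4 regions lay outside genes and more than 50 kb from the nearest start site.

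Introns held several of the other members with high L(8H). A region in an intron of *Ppp3ca*, the catalytic subunit of calcineurin, had fold enrichments of 2.42 with SB-431542, 2.24 at 1 h, 5.54 at 8 h and 2.02 in untreated cells, with a TCF/LEF match shown above. An intronic region of *Hdac4*, a class II histone deacetylase, had 2.80, 2.50, 6.09 and 3.05, and held a ZIC match and the TCF/LEF variant. An intronic region of *Arhgap28*, had 2.93, 2.80, 6.58 and 3.20, with the variant. In each of these 3, the 8 h value stood apart and the other values lay close together.

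The region 12.0 kb from *Mup3* was the tallest of the 12, at 4.41, 3.78, 9.62 and 4.81, but 77.7% of its 300 bp window was repeat-masked sequence. The region 72.0 kb upstream of 1700010J16Rik, also 54.7% masked, had 2.34, 2.10, 5.79 and 2.62. Both lie largely in repeats, where reads are harder to place, and 199 of the members had a window over 50% masked. The members were not more masked than usual. Their median masked share was 12.0% and the 75th percentile 33.3%, against 15.3% and 43.3% over all shared regions. The regions nearest *Hs6st1*, *Fat3* (a large protocadherin) and 6030498E09Rik completed the 12, with 8 h values of 4.63, 5.48 and 4.44.

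**Figure D2:**
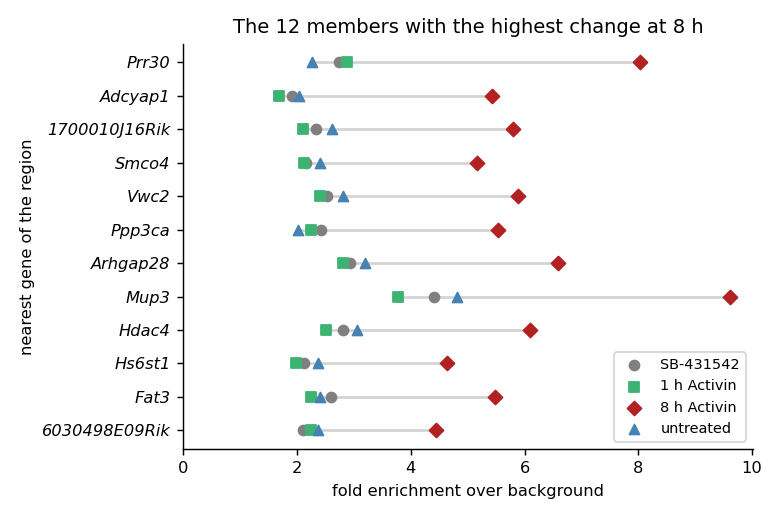
Fold enrichment over background (horizontal axis, a ratio) in each of the 4 states for the 12 members with the highest L(8H), each on a line named by its nearest gene. The 8 h value, between 4.44 and 9.62, is the highest of the 4 in every region, and the other 3 lie together.

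Ranked by the distance between 8 h and the next state, 6 of the 8 leading members were among these 12. The other 2 were a region near Gm16364, in introns of E130307A14Rik and *Traf3ip2*, with 3.44, 2.54, 6.38 and 2.94, and a region 86.9 kb upstream of *Ube2e2*, a ubiquitin-conjugating enzyme gene, with 2.25, 1.97, 4.49 and 2.07. In both, the value was lower at 1 h and in untreated cells than with SB-431542. The region of *Ube2e2* held a TCF/LEF and a ZIC match.

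The members were distal. The centre of 16 members, 1.34% (95% Wilson interval 0.825 to 2.16), lay in a promoter (1000 bp before a start site to 100 bp after it), against 5.71% of all shared regions. Only 5.77% were within 5 kb of a start site, against 15.1%, and 59.7% were over 50 kb away, against 81212 of the shared regions. The median distance was 73244 bp, against 49949 bp. Introns held 38.2% (35.5 to 41.0) of the members and 32.9% of all shared regions, intergenic sequence 57.8% and 56.3%, and exons 2.01% and 3.96%. These intervals treat regions as independent and cover counting error only.

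Sparse promoters were not peculiar to these regions: 0.641% (0.375 to 1.09) of the 2027 regions high both at 8 h and in untreated cells (L of at least 0.45 in both, below 0.2 at 1 h) and 1.19% of the 1012 regions high in untreated cells alone had their centre in one. The members' median GC content was 47.0%, against 48.0%, and the median number of CpG dinucleotides in 300 bp was 2, against 3. They were spread over all chromosomes, from 0.506% of the shared regions of chromosome 11 to 1.06% of those of chromosome 15.

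Among the 8 promoter members with the highest L(8H), the region at the promoter of *Mast4*, a microtubule-associated kinase gene, had fold enrichments of 3.05 with SB-431542, 2.99 at 1 h, 5.00 at 8 h and 3.02 in untreated cells, and its 8 h peak held a TCF/LEF and a ZIC match. That peak was 836 bp wide at 8 h and between 3719 and 3822 bp in the other states, so that the means cover different extents. The promoter region of *Srgn*, the proteoglycan serglycin, had 2.36, 2.31, 3.33 and 2.56 and also held both matches. The promoter region of *Tg*, the thyroglobulin gene, had 2.36, 1.95, 3.40 and 1.74.

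The promoter regions of *Ppp2r2b* and Mir688 likewise had a strongest peak that was narrow at 8 h, 746 and 495 bp, against 2054 bp or more in the other states, and rose from 3.65 to 5.69 and from 3.84 to 5.67 between SB-431542 and 8 h. That of AW822252 went from 4.39 to 7.06 with a peak of similar width, and was 2.86 in untreated cells. The regions at 4933406J10Rik and *Trpm1*, a cation channel gene, reached 2.61 and 4.03 at 8 h. Over all members, the strongest peak was wider at 8 h than with SB-431542 in 705, and 1083 (90.6%) had a single peak in each list, against 94.3% of the shared regions.

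TCF/LEF letters were over-represented in the members. ATCAAAG was found on either strand within the 300 bp window of 182 members, 15.2% (95% Wilson interval 13.3 to 17.4), against 8099 of all shared regions, 4.98% (4.88 to 5.09), a ratio of 3.05. With all shared regions weighted to the members' GC content, to their height with SB-431542 or to their height at 8 h, the share to compare with was 5.40%, 5.05% or 4.94%. The ratio to the GC-weighted share was 2.82, and the cause of the higher share in the members was not tested. The ratio to all shared regions depended on how the regions were scored and on the limits. Selection by a change in percentile, with limits of its own, gave 4900 regions, with the letters in 8.33% of them and a ratio of 1.67. The parts of the score and of the limits in this were not told apart. Read the other way, 2.25% (1.95 to 2.59) of the regions with the letters were members, against 0.657% (0.618 to 0.698) of those without.

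Of 4252 words of 7 letters present in at least 3% of the members, counted with their reverse complement, ATCAAAG had the highest ratio of members to all shared regions. The next were GATCAAA with 2.84, ACTTCAA with 2.81, AGATCAA with 2.54, CTTCAAA with 2.46 and the variant TTCAAAG with 2.40, which share letters with the TCF/LEF word or its variant. The variant, added to the search after the values were seen, was in 15.2% of the members and 6.35% of all shared regions. One form or the other was in 340 members, 28.4% (25.9 to 31.1), against 11.0%.

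ZIC letters came next. CCTGCTG was in 322 members, 26.9% (24.5 to 29.5), against 13.2% (13.0 to 13.4) of all shared regions, a ratio of 2.04. With all shared regions weighted to the members' GC content, their share was 12.6%. Weighted to the members' height with SB-431542 it was 13.2%, and to their height at 8 h 15.5%. With selection by a change in percentile the ratio was 1.25. It stood at rank 13 of the words. At least 2 copies were found in 53 members, 4.43%, against 1.30%.

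Both motifs were in 55 members, 4.60% (3.55 to 5.94), against 0.634% (0.596 to 0.674) of all shared regions, a ratio of 7.26. The product of the separate shares was 4.10% in the members and 0.658% in all shared regions, so the pair occurred together in the members about as often as the separate shares give. The nearest TCF/LEF and ZIC matches were 76.0 bp apart in the median in these 55 members and 82.5 bp apart in all shared regions with both, and lay within 50 bp in 36.4% and 31.7%. Of the 1030 shared regions with both motifs, 5.34% (4.13 to 6.89) were members. A TCF/LEF match in either form or a ZIC match was in 572 members, 47.8%, against 22.7% of all shared regions, and the remaining members had neither.

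**Figure D3:**
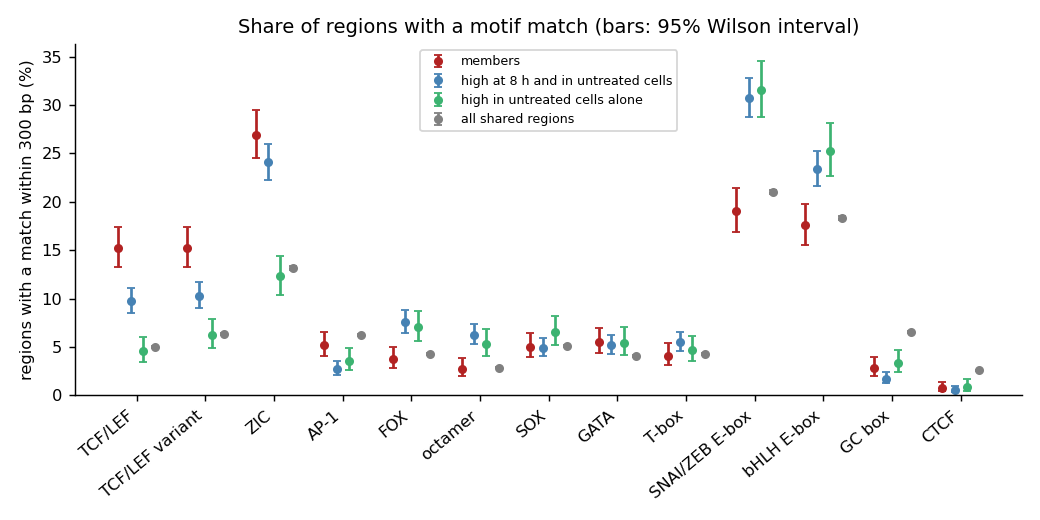
Share of regions with an exact motif match in the 300 bp centred on the strongest 8 h peak (vertical axis, percent). Shown are 13 motifs and 4 groups of regions, with 95% Wilson intervals. The members (1196) have the highest TCF/LEF share, 15.2%, and a ZIC share of 26.9%, whereas the SNAI/ZEB E-box and FOX letters are more frequent in the regions that were also or only high in untreated cells.

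The comparison with regions that untreated cells also held high gave a graded picture for TCF/LEF. ATCAAAG was in 9.77% (8.55 to 11.1) of the 2027 regions high at 8 h and in untreated cells, an interval below that of the members, and in 4.55% (3.42 to 6.01) of the 1012 regions high in untreated cells alone. The latter are the mirror image of the members in the rule, and their share was that of all shared regions. It was 4.33% (2.37 to 7.78) of the 231 regions high at 1 h alone and 4.20% (2.56 to 6.82) of the 357 regions low at 8 h alone.

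ZIC letters did not separate the members from the regions high at 8 h and in untreated cells, 24.1% (22.3 to 26.0) of which held them. They were in 12.3% (10.4 to 14.4) of the regions high in untreated cells alone, 8.66% of those high at 1 h alone and 9.80% of those low at 8 h alone. A higher ZIC share thus went with height at 8 h, with or without height in untreated cells.

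Other letters ran the opposite way between these groups. The forkhead letters GTAAACA were in 3.76% (2.82 to 5.00) of the members, 7.55% (6.48 to 8.78) of the regions high at 8 h and in untreated cells and 4.24% of all shared regions. The octamer ATGCAAAT, bound by POU factors such as POU5F1, was in 2.76% (1.97 to 3.85), 6.27% (5.29 to 7.41) and 2.86%. The E-box CACCTG, bound by SNAI and ZEB repressors, was in 19.1% (16.9 to 21.4), 30.7% (28.8 to 32.8) and 21.0%, and the bHLH E-box CAGCTG in 17.6% (15.5 to 19.8), 23.4% (21.6 to 25.3) and 18.3%. For all 4, the members resembled the shared regions at large and the regions also high in untreated cells did not.

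The AP-1 letters TGAGTCA, bound by FOS and JUN, were in 5.18% (4.06 to 6.59) of the members and 6.24% (6.12 to 6.36) of all shared regions, against 2.76% (2.13 to 3.57) of the regions high at 8 h and in untreated cells, 15.6% (11.5 to 20.8) of those high at 1 h alone and 13.7% (10.5 to 17.7) of those low at 8 h alone. The SOX letters AACAATG were in 5.02% of the members and 5.11% of all, the T-box letters GGTGTGA in 4.10% and 4.27%, and the TEAD letters ACATTCC in 4.43% and 4.42%. GATA letters, AGATAAG, were in 5.52% (4.36 to 6.96) against 4.07%, a difference that weighting by GC content reduced to 5.52% against 4.40%. None of these approached the TCF/LEF ratio.

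SMAD letters were not over-represented. The palindrome GTCTAGAC was in 3 members, 0.251% (0.0853 to 0.735), against 0.276% of all shared regions, and the shorter element AGAC occurred 2.56 times per window in the members and 2.58 times in all. In the 231 regions high at 1 h alone, the palindrome was in 2.60% (1.20 to 5.55). FOXH1 letters, AATCCACA or AATACACA, a known partner of SMAD2, were in 57 members, 4.77% (3.70 to 6.12), against 2.77% (2.69 to 2.85) of all and 3.80% (3.05 to 4.72) of the regions high at 8 h and in untreated cells. A match or its lack in this window says nothing of whether a factor was bound.

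Letters of promoters and insulators were less frequent in the members than in all shared regions, in part with their GC content. Among the GC box, MYC, CTCF, ETS, CREB and NRF1, only MYC and CTCF had a GC-weighted share outside the members' interval. The GC box GGGCGGG was in 2.84% (2.04 to 3.95) of the members against 6.53% of all, which weighting by GC content brought to 3.40%. The MYC E-box CACGTG was in 1.67% (1.09 to 2.57) against 3.45%, or 3.10% after weighting, and the CTCF motif in 9 members, 0.753% (0.396 to 1.42), against 2.58%, or 2.66% after weighting. ETS letters, CCGGAAG, were in 1.00% (0.575 to 1.75) against 2.22%, or 1.45% after weighting. The CREB letters TGACGTCA were in 0 members, which allows a share of up to 0.320% by the Wilson interval, against 0.340% of all, or 0.233% after weighting, and the NRF1 motif was in 0 members and 0.104% of all, or 0.0388% after weighting. The homeobox letters TAATTA were in 7.11% (5.78 to 8.70) against 6.62%, or 7.32% after weighting, both within the interval. The TFAP2 letters GCCNNNGGC were in 8.11% (6.69 to 9.79) against 8.84%, within the interval, or 6.42% after weighting, just below it. The ESRRB letters TCAAGGTCA were in 1.34% against 1.05%, and the GRHL letters AACCGGTT in 4 members, 0.334% (0.130 to 0.857), against 0.0892%. None of the motifs spelled in full bases lies within another, on either strand.

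TCF/LEF and ZIC matches in the members were more frequent within 100 bp of the centre of the 8 h peak than farther out. ATCAAAG was found within 50 bp of the centre in 6.10% (4.88 to 7.61), between 50 and 100 bp away in 6.35% (5.11 to 7.88) and between 450 and 500 bp away in 2.26% (1.56 to 3.26), while in all shared regions the shares were flat, 1.72% and 1.77%. CCTGCTG was within 50 bp in 12.4% (10.6 to 14.4) of the members and at 450 to 500 bp in 1.76% (1.15 to 2.67), against 5.39% and 2.50% of all shared regions. For ZIC the members and all shared regions could not be separated beyond 200 bp. AP-1 letters showed no such centre, with 1.25% (0.762 to 2.06) within 50 bp and 2.17% at 450 to 500 bp.

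**Figure D4:**
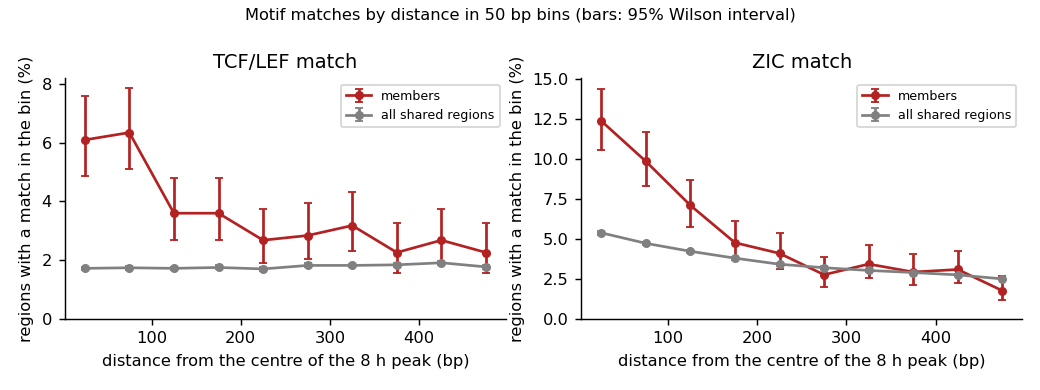
Share of regions with a TCF/LEF match (left) or a ZIC match (right) in bins of 50 bp by distance from the centre of the strongest 8 h peak (horizontal axis, bp) for members and all shared regions, with 95% Wilson intervals. The TCF/LEF share of the members is 6.10% in the first bin, 6.35% in the second and 2.26% in the last, while all shared regions stay near 1.72%, and the ZIC share falls from 12.4% to 1.76%.

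The TCF/LEF share was higher in members with larger rises and the ZIC share was not. ATCAAAG was in 11.9% (9.08 to 15.6) of the 385 members with L(8H) from 0.45 to 0.5, 12.7% (9.89 to 16.2) of the 433 from 0.5 to 0.6, 19.6% (15.4 to 24.7) of the 280 from 0.6 to 0.8 and 26.5% (18.8 to 36.0) of the 98 at 0.8 and above. In either form it went from 25.2% (21.1 to 29.8) to 42.9% (33.5 to 52.7). CCTGCTG was in 26.2%, 27.0%, 26.4% and 30.6% (22.4 to 40.3) of the same bins. In members with the TCF/LEF match the median fold enrichment went from 2.60 in the SB-431542 condition to 4.01 at 8 h, and in members without it from 2.63 to 3.83. Their median GC content, 46.7% and 47.0%, and the share in promoters, 1.10% and 1.38%, were alike.

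**Figure D5:**
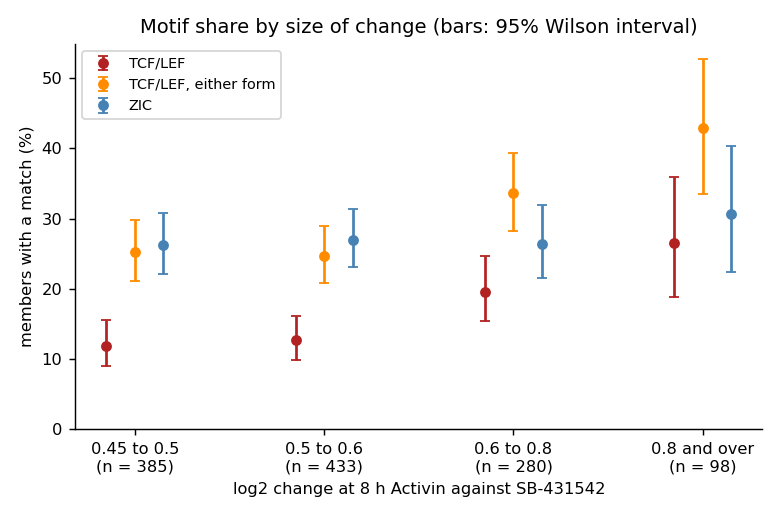
Share of members with a TCF/LEF match, a TCF/LEF match in either form or a ZIC match (vertical axis, percent) in 4 bins of L(8H), the log2 change at 8 h Activin against SB-431542, with 95% Wilson intervals and the number of members in each bin. TCF/LEF goes from 11.9% to 26.5%, and ZIC stays between 26.2% and 30.6%.

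Genes with a member nearby included several of the WNT and NODAL/Activin pathways. Within 50 kb of a start site, a member was found for 876 of 25424 genes with any shared region there, 3.45%. Of all 26180 genes this was 3.35%. In the 17 lists examined, 13 of the 276 genes had a member, 4.71%. Of 22 NODAL/Activin targets, 4 had one (*Skil*, *Wnt3*, *T* and *Fgf8*), and of 24 WNT targets and components, 3 had one (*Axin2*, *Lef1* and *Wnt3*). These genes also had more accessible regions around them than usual, a median of 11 within 50 kb for the first list and 8 for the second, against 7 over all genes. The lists were chosen with results of these data in view, and no test was made of them.

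At WNT genes, the regions were distal and of varied height. The region 46.8 kb upstream of *Axin2*, a feedback inhibitor of WNT signalling that β-catenin induces, had fold enrichments of 3.15 (SB-431542 condition), 2.66 at 1 h, 4.99 at 8 h and 2.98 in untreated cells, and held the TCF/LEF variant. The region 8.43 kb upstream of *Lef1*, itself a TCF/LEF factor, had 3.78, 3.84, 5.15 and 3.97, with a strongest peak that spanned 2191 bp in the SB-431542 condition and 1091 bp at 8 h. An intronic region of *Wnt3*, the ligand that sustains primitive streak formation, had 1.78, 1.86, 2.54 and 1.88, among the weakest of those named, and held a ZIC match. Of the 3, the *Axin2* region had the largest L(8H), 0.69, with 0.48 at *Lef1* and 0.55 at *Wnt3*.

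At the other NODAL/Activin targets, a region 13.0 kb upstream of *T*, which encodes the mesodermal factor Brachyury, had 2.21, 2.17, 3.28 and 2.36, in a window 71.3% repeat-masked. A region 47.9 kb upstream of *Fgf8*, a growth factor of the primitive streak, had 2.54, 2.15, 4.00 and 2.34 and held TCF/LEF, octamer and AP-1 letters. A region 33.2 kb upstream of *Skil*, which encodes the SMAD corepressor SKIL, had 2.88, 2.91, 3.99 and 3.19, where the estimated pileup rose by 0.21 on the log2 scale against an L(8H) of 0.50. Of these 3, the *Fgf8* region alone had lower values at 1 h and in untreated cells than with SB-431542.

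An intronic region of *Foxo3*, a forkhead factor gene, had 4.33, 3.41, 5.96 and 4.78, and held a ZIC match.

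Of the other lists, FGF and ERK feedback genes had 2 of 21 (*Fgf8* and *Spry1*), mesendoderm genes 1 of 21 (*T*), SMAD pathway genes 1 of 24 (*Skil*), cadherin and EMT genes 1 of 18 (*Fn1*) and neural genes 1 of 16 (*Pax3*). BMP ligands and targets, AP-1 and immediate early genes, TEAD and YAP genes, cholesterol and lipid synthesis genes, muscle, liver and housekeeping genes had 0, and of 12 blood genes *Runx1* had a member. *Wnt3*, *T*, *Axin2* and *Foxo3* are also among the 17 loci that the study names, a list that was picked on these cells, and *Sall4* is a gene of the pluripotency list with a member nearby. The intronic region of *Runx1* had fold enrichments of 3.94, 4.04, 5.54 and 3.30 and held both a TCF/LEF and a ZIC match.

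The rises were local. The other shared regions within 50 kb of a member had a median L(8H) of 0.02, against 0.01 around any shared region, so a member was mostly a single region that stood up among neighbours at their usual height. Another member was within 50 kb for 94 of them, 7.86%, against 5.02% of all shared regions. No gene had 3 members within 50 kb of a start site, and 20 had 2, with *Prdm1*, a repressor gene of germ cell and endoderm precursors, among them. The pair upstream of *Prdm1* had 8 h values of 3.64 and 3.15, against 2.57 and 2.28 with SB-431542. By alphabetical order the first 4 of these 20 were 1700083H02Rik, 3300002A11Rik, 4930542C21Rik and A730020M07Rik, whose 8 members had L(8H) from 0.46 at 3300002A11Rik to 0.73 at 1700083H02Rik.

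Promoter peaks set the pluripotency genes of P19 cells apart from liver genes more than from blood genes. A peak covered the promoter of all 10 pluripotency genes looked at, *Pou5f1*, *Sox2* and *Nanog* among them, in 3 states, and of 9 at 8 h, where *Dppa4* had none. Of 12 liver genes, 2 or 3 had a promoter peak, of 12 muscle genes 5 or 6 and of 12 blood genes 8 or 9, with no more at 8 h than in the other states. The lists held 234758 peaks with SB-431542, 233336 at 1 h, 209212 at 8 h and 220004 in untreated cells.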

How the data were processed

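The authors used cutadapt 1.9.1 for trimming, BWA 0.6.2 for alignment to mm10 and Picard to merge the libraries of a state and remove duplicates, and MACS2 2.1.1.20160309 called broad peaks without a control library. The deposited fold enrichment is a ratio of pileup to local background, and the deposited −log10 p and −log10 q are means over the peak of a Poisson score against that background. Each of the 4 lists merges its replicates and gives no read counts, so depth was compared between lists through the lowest estimated background alone. How the 48 labelled libraries map to the 2 replicates of a state was not needed, and no replicate entered the analysis separately.

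Peaks of the 4 lists that overlapped by at least 1 bp were merged, scaled and selected as described, and no test between states was possible. Pileup and background were estimated by inverting the Poisson score, which is approximate for averaged scores. Motifs, 24 in number and 1 added later, were searched as exact letters on both strands of the 300 bp around the centre of the strongest 8 h peak. Weighted comparisons used deciles over all shared regions. Intervals are 95% Wilson intervals on counts of regions. Position was read from 45756 curated RefSeq transcripts of 26180 genes on GRCm38.p6, by the centre of the merged region. Named regions were the 12 members with the highest L(8H), the 8 with the largest distance to the next state among those with −log10 q of at least 20 at 8 h, the 8 promoter members with the highest L(8H), the members within 50 kb of NODAL/Activin, mesendoderm, WNT or study loci, and those at the genes with most members. *Prdm1*, *Runx1* and the genes of the 10 shorter sequences were named after their values were seen. Some items that this rule selects are not reported here. The members, lists and motifs were chosen with earlier results of these data known. Python 3.11.15, numpy 2.4.6, pandas 2.3.3, scipy 1.17.1 and matplotlib 3.10.9 were used, and the scripts were tested on simulated data.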

Additional observations from a re-analysis of the deposited data

How the results depend on the processing

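The selection depended on the score and the limits used, and percentile changes had limits of their own. With a width-weighted mean 1158 regions were selected, with quantile normalisation 1095, with lists of equal length 1134 and with a single peak in each list 1098, and these kept from 83.4% to 93.0% of the members. A minimum −log10 q of 5 gave 785. Limits of 0.6 and 0.1 gave 148, with TCF/LEF letters in 20.9% and a ratio to all shared regions of 4.20. Percentile changes gave 4900 regions, 35.5% of the members among them, a median GC of 47.7%, TCF/LEF in 8.33% and a ratio of 1.67. The estimated pileup gave 1735 regions, with 53.4% of the members among them, a median GC of 48.0%, TCF/LEF in 13.3% and a ratio of 2.66. A 500 bp window gave 45.6%, 20.8% and 2.54, with AP-1 in 7.27%. The centre of the merged region gave a GC of 45.7% and TCF/LEF in 13.2%. Counting any overlap with the promoter window raised the promoter share to 2.76%. Genes of the lists with a member nearby numbered 3 within 10 kb (1.09% of 276, against 0.588% of all genes) and 23 within 100 kb (8.33%, against 6.65%). Over these settings the TCF/LEF ratio ran from 1.67 to 4.20 and the AP-1 ratio from 0.710 to 0.927. The cause of the shifts was not tested. ZIC letters, tried under these settings only after the data had been seen, had ratios from 1.25 to 2.20, and regions over 1 kb from a start site gave a TCF/LEF ratio of 2.90. No paired analysis was possible because each list merges its replicates, and for the same reason no replicate could be left out.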
